A study of Homo sapiens with 12 samples.

Results

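The epidermal growth factor receptor (EGFR) family was read here through 10 genes taken by symbol, of the 19907 symbols listed for every library, and all 10 were among the 18579 genes tested. They were the receptors EGFR, ERBB2 and ERBB3, the EGFR ligands AREG, EREG, HBEGF, TGFA and BTC, and the neuregulins NRG1 and NRG2. The cells were MDA-MB-231, an established human triple-negative breast cancer (TNBC) line that carries the glucocorticoid receptor (GR, gene NR3C1). In S134A-GR cells (clone #1) CRISPR editing had changed Ser134 of GR, a phosphorylation site, to alanine, while wt-GR cells were a non-targeted clone recovered from the same transfected population. All cells were first kept in medium with 1% charcoal-stripped serum (DCC) for 18 h. They were then exposed to vehicle or to 10 ng/mL TGFβ1 for 6 h, and bulk RNA-seq was done on 3 replicates of each of the 4 groups, 12 libraries in all. Since each genotype was represented by 1 clone, the effect of the mutation and the difference between clones cannot be told apart, and "line" below stands for both. The labels do not say that replicates were separate cultures, so p-values measure only the spread between these samples.

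EGFR, ERBB2 and ERBB3 are cell-surface receptor tyrosine kinases that signal as dimers, with ERBB4 as the remaining member of the family. ERBB2 has no known soluble ligand of its own, and ERBB3 has a weak kinase and signals through its partners. Amphiregulin (AREG), epiregulin (EREG), heparin-binding EGF-like growth factor (HBEGF), TGFα (TGFA) and betacellulin (BTC) bind EGFR, some of them ERBB4 as well, and neuregulins bind ERBB3 and ERBB4. Most of these ligands are made as membrane-anchored precursors that metalloproteases such as ADAM17 release, and the activated receptors feed the RAS-ERK and PI3K-AKT pathways. In breast tissue the family takes part in growth of the mammary ducts. TNBC is defined in part by the lack of ERBB2 amplification, and EGFR is often abundant in it.

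Values are normalized counts, which are read counts per gene divided by the library's size factor. Recovered totals ran from 56362036 to 129832227 reads per library, and 3 reads, the lowest level taken as detected, corresponded to 2.15 to 4.89 normalized counts, which covers counting error only. These totals exceed the average depth stated in the labels for paired-end sequencing. Whether both ends of a fragment were counted singly is not given in the sources used here, so a read here may be an end rather than a fragment. SMAD7, a target of TGFβ1 signalling, rose under TGFβ1 in both lines, with log2 fold changes (log2FC) of 1.19 in wt-GR and 1.32 in S134A-GR cells. NR3C1 was lower in S134A-GR cells by log2FC values of -0.41 under vehicle and -0.31 under TGFβ1, and a change of 1 codon cannot be checked from gene counts. Of the markers set for this line, VIM and CD44 were high in all libraries, and ESR1 and CDH1 lay between 0 and 12.5 normalized counts. FOXA1 (189.7 to 317) and GATA3 (688 to 1183), listed as near 0, were not. Among markers of other cell types PTPRC and ALB did not exceed 12.5, but PECAM1 lay between 746 and 1454. PGR, set as near 0 in this line, and CD3E, a marker of other cell types, were not among the symbols listed, so neither could be checked. In a bulk sample, fewer cells of a kind and less RNA per cell cannot be told apart.

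Promoter sequences are shown for 5 ligand genes on which the results turn, because they lie in neighbouring pairs or differed most between groups. EREG and AREG lie side by side on chromosome 4 and fell together under TGFβ1, NRG2 and HBEGF lie near each other on chromosome 5 and moved in opposite directions, and TGFA differed most between the lines. RefSeq (GRCh38.p14) listed 11 windows for 8 of the 10 genes, with a further window each for TGFA, NRG2 and EGFR, and each window shown covers the 250 bases before a transcription start, written 5′ to 3′ on the gene's strand. The windows are chr4:74364895-74365144 (plus strand) for EREG, chr4:74444886-74445135 (plus strand) for AREG, chr5:140043300-140043549 (minus strand) for NRG2, chr5:140346604-140346853 (minus strand) for HBEGF and chr2:70553827-70554076 (minus strand) for TGFA. Capitals mark every match to the motifs searched, on either strand except for the TATA motif.
EREG: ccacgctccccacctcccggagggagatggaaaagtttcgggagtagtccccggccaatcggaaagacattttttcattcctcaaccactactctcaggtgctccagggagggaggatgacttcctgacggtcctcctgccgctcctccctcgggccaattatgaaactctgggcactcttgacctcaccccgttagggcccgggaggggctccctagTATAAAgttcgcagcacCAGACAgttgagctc
AREG: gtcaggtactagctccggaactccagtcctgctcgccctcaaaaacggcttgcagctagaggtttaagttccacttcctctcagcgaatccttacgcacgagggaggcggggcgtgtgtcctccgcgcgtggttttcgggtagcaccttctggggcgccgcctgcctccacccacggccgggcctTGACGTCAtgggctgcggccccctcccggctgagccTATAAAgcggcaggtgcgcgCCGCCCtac
NRG2: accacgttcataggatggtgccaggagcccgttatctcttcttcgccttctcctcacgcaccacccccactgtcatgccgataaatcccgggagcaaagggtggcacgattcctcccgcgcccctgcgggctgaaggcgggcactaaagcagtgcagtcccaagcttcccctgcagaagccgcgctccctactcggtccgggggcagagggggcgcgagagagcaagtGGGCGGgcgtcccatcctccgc
HBEGF: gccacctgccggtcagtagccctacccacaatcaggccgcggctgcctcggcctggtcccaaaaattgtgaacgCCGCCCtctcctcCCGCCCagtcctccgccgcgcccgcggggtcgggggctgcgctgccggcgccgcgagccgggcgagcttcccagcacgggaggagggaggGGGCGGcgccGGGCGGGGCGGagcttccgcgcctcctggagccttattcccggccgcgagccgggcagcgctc
TGFA: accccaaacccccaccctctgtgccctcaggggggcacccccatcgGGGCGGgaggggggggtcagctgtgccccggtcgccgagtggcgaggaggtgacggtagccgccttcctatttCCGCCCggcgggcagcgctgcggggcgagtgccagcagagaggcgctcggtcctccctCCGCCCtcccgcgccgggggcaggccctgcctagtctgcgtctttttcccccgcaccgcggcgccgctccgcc
The motifs were an AP-1 site (TGACTCA), a cAMP response element (TGACGTCA), a GR half-site (AGAACA), a full GR element (the half-site and its inverted copy 3 bases apart), a SMAD box (CAGACA), a SMAD palindrome (GTCTAGAC) and a GC box (GGGCGG) on both strands, and TATAAA on the gene's strand. The EREG window held TATAAA 32 bases before the start and a SMAD box 15 bases before it, and 13.6% of 35116 windows of this length held a SMAD box. The AREG window held a cAMP response element at 65 bases, TATAAA at 29 and a GC box at 9, where 1.65% of windows held that element and 6.80% held TATAAA. Neither the HBEGF, the TGFA nor the NRG2 window held TATAAA. These 3 windows held 5, 3 and 1 GC boxes, a motif present in 42.6% of all windows, and a pair of those in HBEGF, at 63 and 58 bases, overlap by 1 base. No window of these 5 held an AP-1 site (4.20% of all windows), a GR half-site (12.4%), the full GR element (0.00285%) or the SMAD palindrome (0.182%). The second TGFA window (chr2:70553447-70553696, minus strand), not shown, held a GR half-site 46 bases before its start, and the second NRG2 window (chr5:139904472-139904721, minus strand) held a GC box at 140 bases. The second EGFR window (chr7:55109589-55109838, plus strand), also not shown, held AP-1 sites at 136 and 232 bases. It further held a SMAD box at 67 bases and TATAAA at 146 and 36. A match is a description of letters in this window, not a binding site.

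Levels of different genes were set side by side per kb of annotated exon (GENCODE v44), as means ± SD of 3 libraries, with no test. In wt-GR cells under vehicle HBEGF led with 4166 ± 166 normalized counts per kb. EGFR (1055 ± 195), ERBB2 (861 ± 3.39), TGFA (699 ± 9.28), EREG (427 ± 35.6) and AREG (227 ± 9.73) followed. NRG1 (110.2 ± 0.551), NRG2 (87.3 ± 2.69), BTC (31.8 ± 5.43) and ERBB3 (24.8 ± 2.98) were lowest. The libraries of EGFR (869 to 1258 per kb) reached down almost to those of ERBB2 (859 to 865), and those of BTC (27.0 to 37.7) overlapped those of ERBB3 (21.8 to 27.7), so neither of these neighbours in the order was separated beyond its spread. The receptor that signals through its partners, ERBB3, was thus present at a small part of the level of EGFR and ERBB2 in every group. In S134A-GR cells under vehicle ERBB2 (1017 ± 10.9 per kb) stood above EGFR (965 ± 42.0), though libraries of these genes overlapped (1005 to 1026 and 928 to 1011), NRG2 (115 ± 12.2) above NRG1 (63.6 ± 0.738) and EREG (419.6 ± 9.04) above TGFA (268 ± 13.5). With the longest transcript as the length in place of all exons, EGFR and ERBB2 changed places in wt-GR cells under vehicle, and BTC and ERBB3 did so in every group but vehicle-treated S134A-GR cells. The per-kb levels of the 5 EGFR ligands among the 10 genes were also summed, without EGF and EPGN. HBEGF made up 75.0% ± 0.708 of this sum in vehicle-treated wt-GR cells and 85.9% ± 0.454 in TGFβ1-treated ones. In S134A-GR cells its share was 70.3% ± 1.17 and 81.5% ± 0.864. The summed level itself was 5551 ± 174 per kb in vehicle-treated and 6245 ± 221 in TGFβ1-treated wt-GR cells, and 3137 ± 31.2 and 3744 ± 250.2 in the same order in S134A-GR cells.

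**Figure D1:**
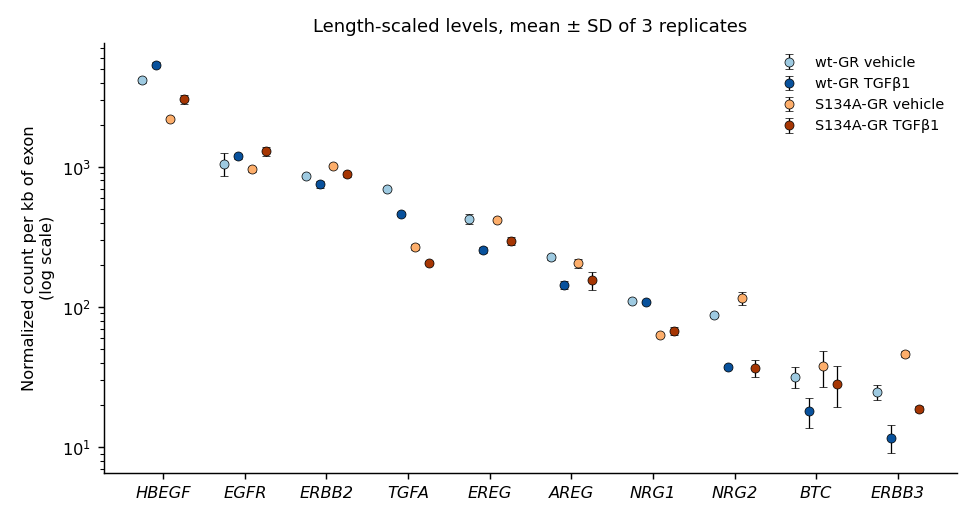
Mean normalized count per kb of exon (log scale, error bars are the SD of 3 replicates) of the 10 genes in the 4 groups, ordered by the level in wt-GR cells under vehicle. HBEGF is highest in all 4 groups, and ERBB3 and BTC are lowest in all 4.

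**Figure D2:**
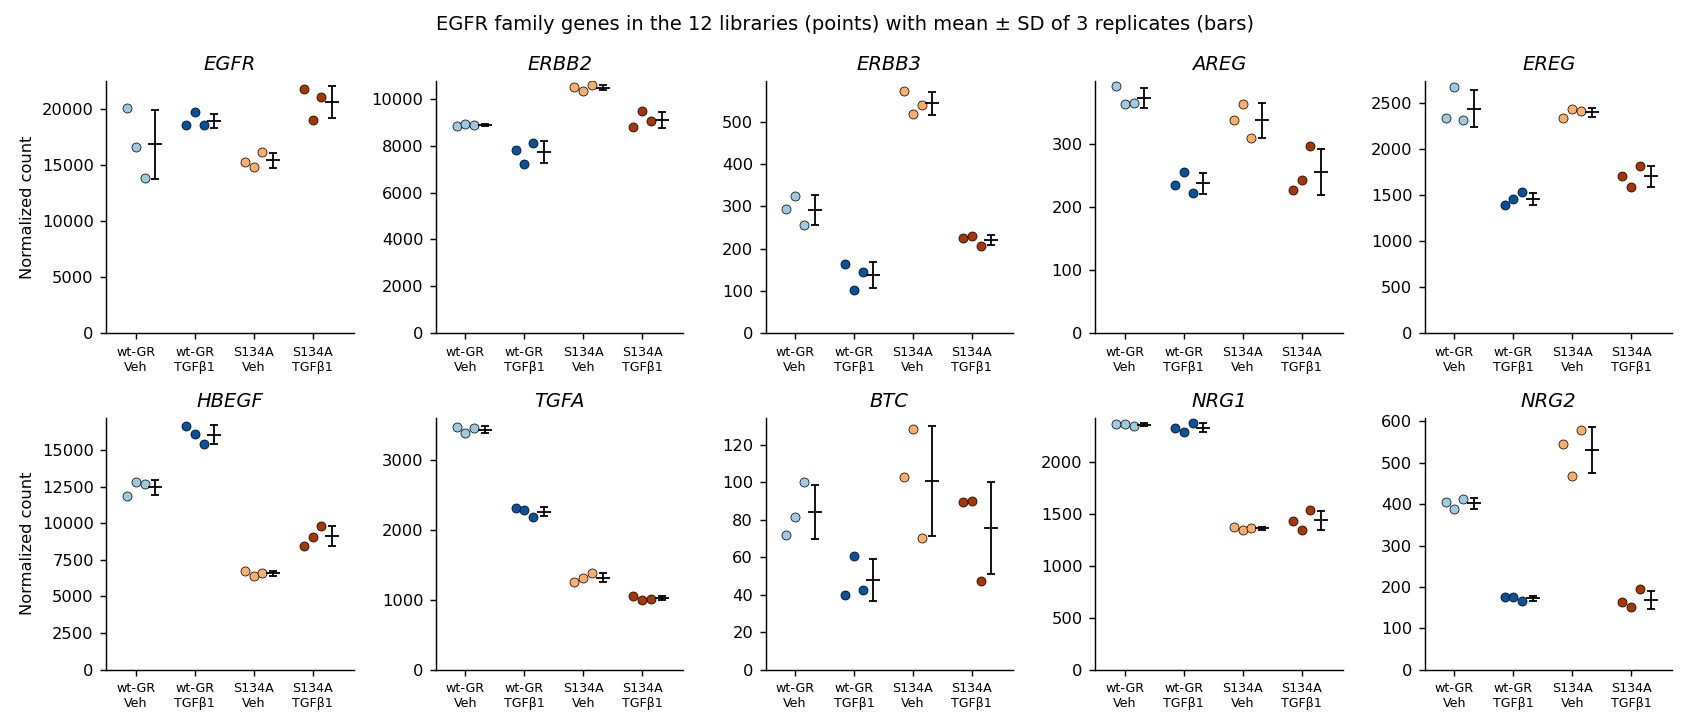
Normalized count of each gene in the 12 libraries (points) with the mean ± SD of each group of 3 replicates (bars), on axes that start at 0. TGFA, HBEGF and NRG1 separate the lines, and ERBB3, EREG and NRG2 separate the treatments.

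The first question was how the family responded to TGFβ1. Transcripts of 6 of the 10 genes fell in both lines, namely ERBB2, ERBB3, AREG, EREG, TGFA and NRG2, and HBEGF rose in both. EGFR rose in S134A-GR cells. Past a false discovery rate (FDR) of 0.05 by limma, 7 of 10 were called in wt-GR cells (1 higher, 6 lower), where 21.0% of all genes were called (11.2% higher, 9.82% lower). In S134A-GR cells 8 of 10 were called (2 higher, 6 lower), against 18.7% of all genes (10.0% higher, 8.69% lower). The median log2FC of the 10 was -0.63 in wt-GR and -0.39 in S134A-GR cells, where those of all genes were -0.00 and -0.01. Groups did not overlap for 8 genes in each line, where 33.9% and 35.6% of all genes did not overlap. A 2-fold change or more, 1 on the log2 scale, was reached by ERBB3 and NRG2 in each line, against 2.29% and 1.66% of all genes. Without the second TGFβ1 replicate of wt-GR cells 1 gene passed that size in place of 2 in wt-GR cells.

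**Figure D3:**
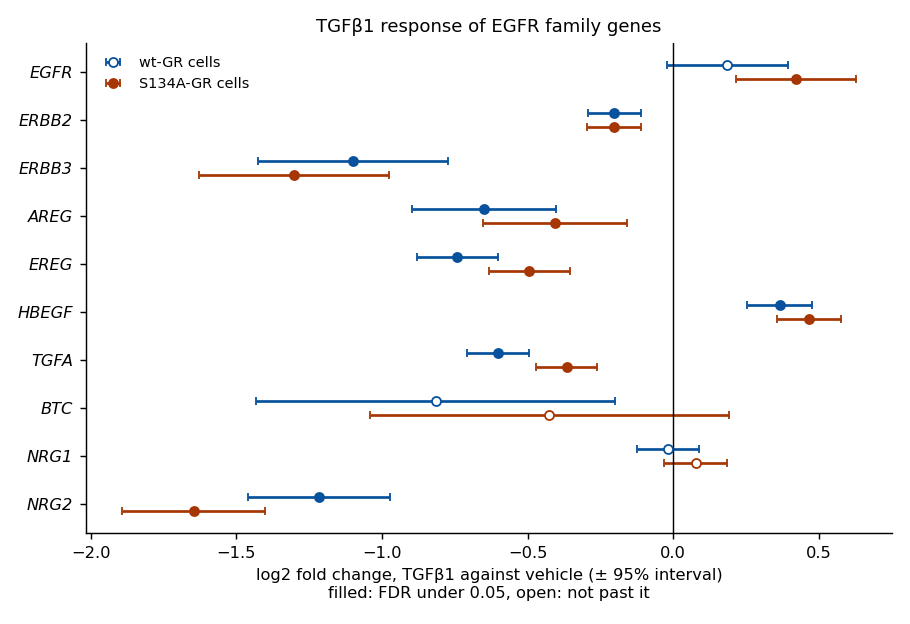
Log2FC of TGFβ1 against vehicle for the 10 genes in wt-GR cells (blue) and S134A-GR cells (brown), with 95% intervals from limma and filled points at an FDR under 0.05. NRG2 and ERBB3 lie farthest below 0 and HBEGF lies above 0 in both lines.

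Among the receptors, ERBB3 (chr12:56076799-56103505) changed most. Its normalized counts in wt-GR cells were 293, 324 and 255 under vehicle and 163, 103 and 146 under TGFβ1. In S134A-GR cells they were 573, 519 and 539 under vehicle and 225, 229 and 206 under TGFβ1. Treated libraries lay below vehicle libraries in both lines without overlap. ERBB3 transcripts fell by 53.3% in wt-GR cells (log2FC -1.10, SE 0.152, adjusted p = 0.000119 by limma). They fell by 59.4% in S134A-GR cells (-1.30, adjusted p = 2.86e-05 by limma). ERBB2 (chr17:39687914-39730426), the preferred partner of ERBB3, fell far less. It had 8864, 8931 and 8878 normalized counts in vehicle-treated wt-GR cells and 7832, 7229 and 8139 under TGFβ1. The S134A-GR libraries had 10524, 10369 and 10589 under vehicle and 8795, 9485 and 9078 under TGFβ1. The treated and vehicle libraries did not overlap in either line, and ERBB2 fell by 13.1% in wt-GR cells (log2FC -0.20, SE 0.0425, adjusted p = 0.00334 by limma). In S134A-GR cells the log2FC was also -0.20 (adjusted p = 0.0037). In the annotation 6.93% of its exon bases are overlapped by MIEN1 and PGAP3 on the other strand, and the strand setting of the counting is not given in the sources used here.

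EGFR (chr7:55019017-55211628), the receptor of the main ligands measured here, moved the other way. Its normalized counts were 20048, 16545 and 13848 in wt-GR cells under vehicle and 18569, 19659.9 and 18526 under TGFβ1. In S134A-GR cells they were 15227, 14798 and 16111 under vehicle and 21775, 18993 and 21039 under TGFβ1. The vehicle libraries of wt-GR cells were spread widely and overlapped the treated ones, while those of S134A-GR cells all lay below the treated ones. EGFR rose 1.34-fold in S134A-GR cells (log2FC 0.42, 95% interval 0.21 to 0.63, adjusted p = 0.00677 by limma). The log2FC in wt-GR cells was 0.19 (95% interval -0.02 to 0.39, adjusted p = 0.206), and without the first vehicle replicate of wt-GR cells it was 0.32 with an adjusted p of 0.00578.

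Of the EGFR ligands among the 10 genes, HBEGF (chr5:140332843-140346603) rose in both lines, while TGFA, EREG and AREG fell in both. HBEGF stood at 11893, 12817 and 12663 normalized counts in vehicle-treated wt-GR cells and at 16658, 16107 and 15377 under TGFβ1. The S134A-GR libraries stood at 6762, 6418 and 6609 under vehicle and at 8476, 9082 and 9842 under TGFβ1. All treated libraries of a line lay above its vehicle libraries, and even the treated S134A-GR libraries stayed below the vehicle libraries of wt-GR cells. The rise was 1.29-fold in wt-GR cells (log2FC 0.37, SE 0.0514, adjusted p = 0.000137 by limma) and 1.38-fold in S134A-GR cells (0.47, adjusted p = 1.59e-05). TGFA (chr2:70447284-70554193), a ligand that many carcinoma cells make for their own EGFR, fell from 3469, 3383 and 3453 normalized counts to 2316, 2281 and 2192 in wt-GR cells. S134A-GR libraries fell from 1253, 1309 and 1385 to 1051, 997 and 1013. The 4 groups of TGFA did not overlap at all, and TGFA fell by 34.1% in wt-GR cells (log2FC -0.60, SE 0.0490, adjusted p = 6.2e-07 by limma). It fell by 22.4% in S134A-GR cells (-0.37, adjusted p = 0.000101).

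EREG (chr4:74365145-74388749) and AREG (chr4:74445136-74455005), the ligands with neighbouring genes, fell together. EREG had 2335, 2675 and 2311 normalized counts in vehicle-treated wt-GR cells and 1392, 1452 and 1529 under TGFβ1. The S134A-GR libraries had 2338, 2435 and 2419 under vehicle and 1709, 1589 and 1815 under TGFβ1. Vehicle libraries of the lines lay in the same range, and every treated library lay below them. EREG fell by 40.2% in wt-GR cells (log2FC -0.74, SE 0.0651, adjusted p = 1.38e-06 by limma) and fell by 29.0% in S134A-GR cells (-0.49, adjusted p = 8.71e-05). AREG, which acts in outgrowth of mammary ducts, had 391, 363 and 364 normalized counts in vehicle-treated wt-GR cells and 236, 255 and 222 under TGFβ1. S134A-GR cells had 338, 364 and 309 under vehicle and 226, 243 and 297 under TGFβ1. Treated and vehicle libraries of AREG did not overlap in either line, although the third treated S134A-GR library came close to the lowest vehicle library of that line. AREG fell by 36.2% in wt-GR cells (log2FC -0.65, adjusted p = 0.00097 by limma). In S134A-GR cells it fell by 24.5% (-0.41, adjusted p = 0.0239), and this call was lost when the first or second vehicle replicate or the first or second TGFβ1 replicate of S134A-GR cells was left out (adjusted p = 0.0707, 0.0967, 0.0942 and 0.0747) and when only the groups compared were fitted (0.0903).

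BTC (chr4:74744759-74794523) was the least abundant EGFR ligand among the 10 genes. It was at 71.7, 81.4 and 100.03 normalized counts in vehicle-treated wt-GR cells and at 40.0, 60.8 and 42.8 under TGFβ1. The S134A-GR libraries were at 102.7, 128.7 and 70.4 under vehicle and at 89.4, 90.1 and 47.2 under TGFβ1. Its groups did not overlap in wt-GR cells and overlapped in S134A-GR cells. Neither difference passed the threshold, with log2FC values of -0.82 (95% interval -1.43 to -0.20, adjusted p = 0.0595 by limma) and -0.42 (-1.04 to 0.19, adjusted p = 0.361). The wt-GR difference was called by DESeq2 (adjusted p = 0.0345), with the replicate number as a block (0.0467), without the second TGFβ1 replicate of wt-GR cells (0.0473) and without the third TGFβ1 replicate of S134A-GR cells (0.0305). With 36 to 127 reads per library, this gene was measured with the widest intervals of the 10.

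The neuregulins parted. NRG2 (chr5:139846779-140043299) had 406, 388 and 412 normalized counts in vehicle-treated wt-GR cells and 176, 176 and 166 under TGFβ1. S134A-GR cells had 545, 468 and 578 under vehicle and 163, 151 and 194 under TGFβ1. Vehicle libraries stood well apart from treated ones, and the treated libraries of the lines overlapped each other. NRG2 fell by 56.9% in wt-GR cells (log2FC -1.22, SE 0.114, adjusted p = 2.63e-06 by limma) and fell by 68.0% in S134A-GR cells (-1.65, adjusted p = 1.49e-07). A gene without a symbol overlaps 5.09% of the NRG2 exon bases on the other strand. NRG1, the neuregulin best known as a ligand of ERBB3 in breast cells, had 2361, 2363 and 2342 normalized counts in vehicle-treated wt-GR cells and 2326, 2285 and 2369.9 under TGFβ1. S134A-GR libraries had 1371, 1341 and 1364 under vehicle and 1427, 1346 and 1532 under TGFβ1. Treated and vehicle libraries overlapped in each line, and the log2FC values were -0.02 (95% interval -0.12 to 0.09, adjusted p = 0.855 by limma) and 0.08 (-0.03 to 0.18, adjusted p = 0.341).

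The second question was how the lines differed at a given treatment. TGFA, HBEGF and NRG1 were lower and ERBB2 and ERBB3 higher in S134A-GR than in wt-GR cells under both treatments. NRG2 was higher under vehicle and EREG under TGFβ1. These comparisons use the same 12 libraries as those of treatment, so each library enters both. Under vehicle 6 of 10 genes were called (3 higher, 3 lower), where 51.5% of all genes were (25.0% higher, 26.5% lower). Under TGFβ1 6 of 10 were called (3 higher, 3 lower), where 48.8% of all genes were (23.1% higher, 25.7% lower). The count of called genes was thus near that of genes at large. The median log2FC of the 10 was -0.07 under vehicle and 0.11 under TGFβ1, against 0.02 and 0.01 over all genes. Groups did not overlap for 6 genes under either treatment, where 57.3% and 55.6% of all genes did not overlap. TGFA passed an absolute log2FC of 1 under both treatments, a size that 9.51% and 8.46% of all genes reached.

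**Figure D4:**
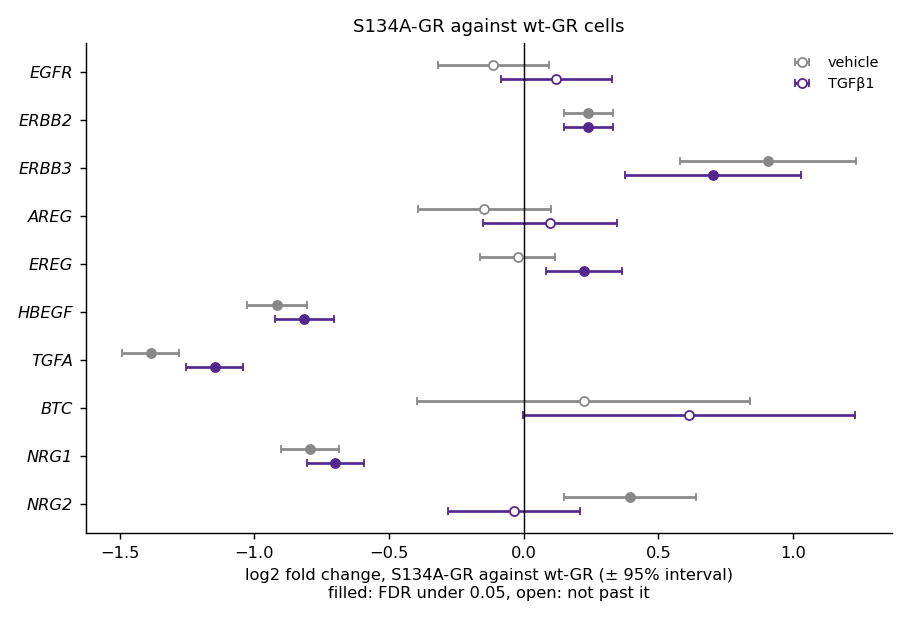
Log2FC of S134A-GR over wt-GR cells for the 10 genes under vehicle (grey) and TGFβ1 (purple), with 95% intervals from limma and filled points at an FDR under 0.05. TGFA, HBEGF and NRG1 lie below 0 and ERBB2 and ERBB3 above 0 under both treatments.

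Of the receptors, ERBB3 averaged 291 ± 34.9 normalized counts (SD, n = 3) in wt-GR and 544 ± 27.3 in S134A-GR cells under vehicle. Under TGFβ1 it averaged 137 ± 31.3 and 220.1 ± 12.3, and the lines did not overlap under either treatment. It was 1.87-fold higher in S134A-GR cells under vehicle (log2FC 0.91, SE 0.152, adjusted p = 0.000173 by limma) and 1.63-fold higher under TGFβ1 (0.70, adjusted p = 0.00148). ERBB2 was 1.18-fold higher in S134A-GR cells under vehicle (log2FC 0.24, adjusted p = 0.000279) and 1.18-fold higher under TGFβ1 (adjusted p = 0.000311), again without overlap. EGFR differed by log2FC values of -0.11 (95% interval -0.32 to 0.09, adjusted p = 0.352 by limma) and 0.12 (-0.09 to 0.33, adjusted p = 0.327). Without the third vehicle replicate of wt-GR cells, the lowest of its group, the EGFR difference under vehicle was -0.24 with an adjusted p of 0.0118.

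TGFA, at 3435 ± 45.6 normalized counts in wt-GR and 1316 ± 66.6 in S134A-GR cells under vehicle, had the largest difference between lines among the 10 genes. The log2FC was -1.39 (SE 0.0490, adjusted p = 6.5e-11 by limma), a level 2.61-fold lower on this scale. Under TGFβ1 it was -1.15 (adjusted p = 3.97e-10), from 2263 ± 64.2 to 1020.4 ± 27.6 normalized counts. Genes around TGFA shifted the same way: of the 20 tested genes within 1 Mb that averaged at least 100 normalized counts, 19 had a negative log2FC under vehicle, with a median of -0.41. Their median was -0.38 under TGFβ1, and that of all genes at this level was -0.01 under each treatment. The part of this shift in the TGFA result was not tested. HBEGF averaged 12458 ± 495 in wt-GR and 6596 ± 172 in S134A-GR cells under vehicle, with a log2FC of -0.92 (SE 0.0514, adjusted p = 4.87e-09 by limma). Under TGFβ1 it was -0.81 (adjusted p = 1.67e-08), from 16047 ± 643 to 9133 ± 684 normalized counts. The 38 genes around HBEGF had a median of 0.19 under vehicle, opposite in sign to HBEGF. EREG did not differ past the threshold under vehicle (log2FC -0.02, 95% interval -0.16 to 0.12, adjusted p = 0.801), with means of 2440.4 ± 203 and 2397 ± 51.6. Under TGFβ1 it was higher in S134A-GR cells by 0.22 (adjusted p = 0.0107), with means of 1458 ± 68.5 and 1704 ± 113, and this call was lost without the third TGFβ1 replicate of S134A-GR cells (0.18, adjusted p = 0.0551). AREG and BTC were not called under either treatment. Their log2FC values were -0.15 and 0.22 under vehicle (adjusted p = 0.314 and 0.552 by limma) and 0.10 and 0.61 under TGFβ1 (adjusted p = 0.522 and 0.0945). Without the third TGFβ1 replicate of S134A-GR cells, BTC was called under TGFβ1 (0.92, adjusted p = 0.0149).

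NRG1 averaged 2355 ± 11.8 normalized counts in wt-GR and 1359 ± 15.8 in S134A-GR cells under vehicle, with log2FC values of -0.79 under vehicle (SE 0.0499, adjusted p = 1.5e-08 by limma) and -0.70 under TGFβ1 (adjusted p = 5.52e-08). Of the 10 genes around NRG1, 8 had a negative log2FC under vehicle, with a median of -0.23, and the part of this shift in the NRG1 result was not tested. Of the 44 genes around ERBB3, 31 had a positive one under vehicle, with a median of 0.16, and its part in the ERBB3 result was likewise not tested. Around EGFR, which was not called between the lines, 8 of 10 genes had a negative log2FC under vehicle, with a median of -0.14. NRG2 averaged 402 ± 12.4 in wt-GR and 530.4 ± 56.3 in S134A-GR cells under vehicle (log2FC 0.39, adjusted p = 0.00967 by limma). This call was lost without the third vehicle replicate of S134A-GR cells (0.33, adjusted p = 0.0522). Under TGFβ1 NRG2 averaged 172 ± 5.56 and 169 ± 22.2, with a log2FC of -0.04 (95% interval -0.28 to 0.21, adjusted p = 0.829).

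The third question was whether the lines differed in their response to TGFβ1, tested as the difference between the log2FC values of the lines. None of the 10 genes passed an FDR of 0.05 by limma, by edgeR or by DESeq2, where 0.414% of all genes did by limma. At an unadjusted p under 0.05 by limma there were 3 of 10, where 9.30% of all genes passed. For TGFA the estimate was a smaller fall in S134A-GR cells, by a difference of 0.24 (95% interval 0.09 to 0.39, adjusted p = 0.269 by limma). That for EREG was also a smaller fall there, by 0.25 (0.05 to 0.44, adjusted p = 0.414 by limma). The third was NRG2, with an estimate of a larger fall there, by -0.43 (-0.78 to -0.08, adjusted p = 0.418 by limma). The responses of these 3 genes were not shown to differ between the lines, and the intervals are not adjusted for the number of genes. For EGFR, called in S134A-GR cells alone, the difference was 0.23 (-0.06 to 0.53, adjusted p = 0.623 by limma), so its response was not shown to differ between the lines. The difference of ERBB2 had the narrowest interval, 0.00 (-0.13 to 0.13), and that of BTC the widest, 0.39 (-0.48 to 1.26). The intervals of ERBB3 (-0.66 to 0.26), AREG (-0.11 to 0.59), HBEGF (-0.05 to 0.26) and NRG1 (-0.06 to 0.25) also held 0.

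The places of the ligand genes in the genome (GRCh38) give further context. On chromosome 4, EPGN, EREG, AREG and BTC follow each other, with 48.4 kb between EPGN and EREG, 56.4 kb between EREG and AREG and 289.8 kb between AREG and BTC. EREG and AREG fell under TGFβ1 in both lines. The 6 genes around EREG that averaged at least 100 normalized counts, AREG among them, all had a negative log2FC in wt-GR cells, with a median of -0.15, while 5 of the 6 were positive in S134A-GR cells, with a median of 0.07. The part of the wt-GR shift in the EREG and AREG results was not tested. On chromosome 5, NRG2 and HBEGF lie 289.5 kb apart on the same strand, and under TGFβ1 NRG2 fell while HBEGF rose in both lines. The genes around NRG2 and around HBEGF, 27 and 38 of them, had medians of 0.11 and 0.05 in wt-GR cells. The edited gene NR3C1 is on this chromosome too, 2.93 Mb from HBEGF and 3.23 Mb from NRG2.

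ERBB3, NRG2 and TGFA varied most over the 12 libraries among the members averaging at least 100 normalized counts, with SDs of 0.78, 0.77 and 0.71 on the log2 scale. Genes most like them in pattern were sought among 12467 genes of at least that mean level, by the root mean square difference between centred log2 levels over the 12 libraries, as a description with no test. Nearest to ERBB3 were LONRF2 (0.21), CYP1A1 (0.23) and SLC16A6 (0.24). Nearest to NRG2 were CIITA (0.15), ZBTB7C (0.18) and SPNS2 (0.20). LRP5 (0.0916), SLCO4C1 (0.0946) and TM4SF18 (0.0952) lay nearest to TGFA, at smaller distances than those found for ERBB3 and NRG2. These distances also take in the spread between replicates, and its part was not tested. ERBB3 and NRG2 averaged 298 and 318 normalized counts over the 12 libraries, against 2008 for TGFA.

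Genes that work with the family were read from 5 lists, 44 tested genes in all. Under vehicle 11 of the 44 were higher and 24 lower in S134A-GR cells, and under TGFβ1 11 were higher and 21 lower. Of all genes, 25.0% were higher and 26.5% lower under vehicle, and 23.1% and 25.7% under TGFβ1. TGFβ1 raised 2 and lowered 12 in wt-GR cells and raised 8 and lowered 10 in S134A-GR cells, where it raised 11.2% and lowered 9.82% of all genes in wt-GR and raised 10.0% and lowered 8.69% in S134A-GR cells. For the difference in response 0 of the 44 were called by limma or by edgeR. The median log2FC of the 44 was -0.15 under vehicle and -0.15 under TGFβ1 between lines, and -0.05 and 0.01 for TGFβ1 in wt-GR and S134A-GR cells. Members of the family beyond the 10 were 4, since NRG3 was not among the symbols listed for the libraries. EGF, the ligand that names the receptor, averaged 221 ± 16.9 normalized counts in wt-GR and 670.4 ± 55.9 in S134A-GR cells under vehicle, a log2FC of 1.60 (adjusted p = 3.64e-08 by limma). Epigen (EPGN) averaged 10.3 ± 5.27 and 46.4 ± 2.74 (log2FC 2.18, adjusted p = 0.000185 by limma), and the difference under TGFβ1 was 3.17 (adjusted p = 6.7e-06). NRG4 (8.46 ± 8.19 and 26.3 ± 11.2) was higher and ERBB4 (27.4 ± 8.45 and 10.7 ± 4.48) lower in vehicle-treated S134A-GR cells, at adjusted p-values of 0.0268 and 0.0273 by limma and 0.0507 and 0.0295 by edgeR. All 4 were called between the lines under vehicle, where 51.5% of all genes were. This count fell to 2 without the first or the second vehicle replicate of wt-GR cells or the first of S134A-GR cells. None of these 4 was called for TGFβ1 in either line.

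All 6 genes of ligand shedding differed between the lines under both treatments, 2 higher and 4 lower, where 51.5% of all genes were called under vehicle and 48.8% under TGFβ1. The median log2FC of the 6 was -0.44 under vehicle. ADAM17, the main sheddase of AREG, EREG, HBEGF and TGFA precursors, averaged 8540.0 ± 445 normalized counts in wt-GR and 4120.0 ± 82.7 in S134A-GR cells under vehicle. Its log2FC values were -1.05 under vehicle (adjusted p = 6.23e-10 by limma) and -0.99 under TGFβ1 (adjusted p = 1.21e-09). RHBDF2 was lower as well (-0.56 and -0.59), and so was the rhomboid protease RHBDL2, at 103 ± 28.4 and 12.7 ± 3.03 normalized counts under vehicle (log2FC -2.91). ADAM12, another metalloprotease, was higher (0.62 and 0.60), and so was RHBDF1, the other RHBDF gene of the list (0.57 and 0.36). None of the 6 was called for TGFβ1 in wt-GR cells, and RHBDF1 fell in S134A-GR cells (-0.42, adjusted p = 0.00388 by limma). By DESeq2, and without the first TGFβ1 replicate of S134A-GR cells, 1 of the 6 was called in wt-GR cells. In S134A-GR cells 0 were called when only the groups compared were fitted and 2 without the second TGFβ1 replicate of that line.

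Among 8 adaptors and first signalling steps, 3 were higher in S134A-GR cells under vehicle and 4 were lower, against 51.5% of all genes called in either direction. The Ras regulators RASA1 (log2FC -0.65) and SOS1 (-0.56) were lower, and PLCG1 (0.28) and the docking protein GAB1 (0.25) were higher. TGFβ1 raised 1 of the 8 in wt-GR and 3 in S134A-GR cells, where it raised 11.2% and 10.0% of all genes. The count of 1 became 2 without the third vehicle replicate of wt-GR cells and 0 without the second TGFβ1 replicate of that line. The count of 3 became 1 when only the groups compared were fitted and when any vehicle replicate or the first TGFβ1 replicate of S134A-GR cells was left out. Of 12 genes of receptor turnover and inhibition, 1 was higher and 6 were lower in vehicle-treated S134A-GR cells, a total near the 51.5% of all genes called. ERRFI1, an inhibitor that binds the EGFR kinase, averaged 80531 ± 3154 normalized counts in wt-GR and 32770.1 ± 739.8 in S134A-GR cells (log2FC -1.30, adjusted p = 6.64e-12 by limma). The ubiquitin ligase CBL (-0.72) and SOCS5 (-0.47) were lower too, and DCN stayed below the level of 3 reads on average. TGFβ1 lowered 5 of the 12 in wt-GR cells, where it lowered 9.82% of all genes. It raised 2 and lowered 3 in S134A-GR cells, where it raised 10.0% and lowered 8.69% of all genes. The latter total of 5 became 3 with the replicate number as a block, and also without the third TGFβ1 replicate of wt-GR cells or without the first or second replicate of either S134A-GR group.

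The 14 transcripts commonly read as output of ERK were lower in S134A-GR cells for 9 and higher for 2 under each treatment, where 26.5% of all genes were lower and 25.0% higher under vehicle and 25.7% and 23.1% under TGFβ1. They had a median log2FC of -0.35 under vehicle and -0.31 under TGFβ1. The ERK inhibitor SPRY4 averaged 16119 ± 1001 normalized counts in wt-GR and 10021 ± 219 in S134A-GR cells under vehicle (log2FC -0.68, adjusted p = 9.93e-09 by limma), and the cell-cycle gene CCND1 differed by -0.55 (adjusted p = 4.66e-08). FOS was higher under vehicle (0.55, adjusted p = 0.0016 by limma). TGFβ1 lowered 7 and raised 1 of the 14 in wt-GR cells, where it lowered 9.82% and raised 11.2% of all genes. In S134A-GR cells it lowered 6 and raised 3, where it lowered 8.69% and raised 10.0% of all genes. FOSL1, a subunit of AP-1, stood at 30306 ± 822 normalized counts under vehicle and 19887 ± 146 under TGFβ1 in wt-GR cells (log2FC -0.61, adjusted p = 1.15e-06 by limma). These are transcript levels, and receptor or kinase activity was not measured in these libraries. From separate protein assays the study reports that activation of ERK by serum was unaffected in S134A-GR cells.

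**Figure D5:**
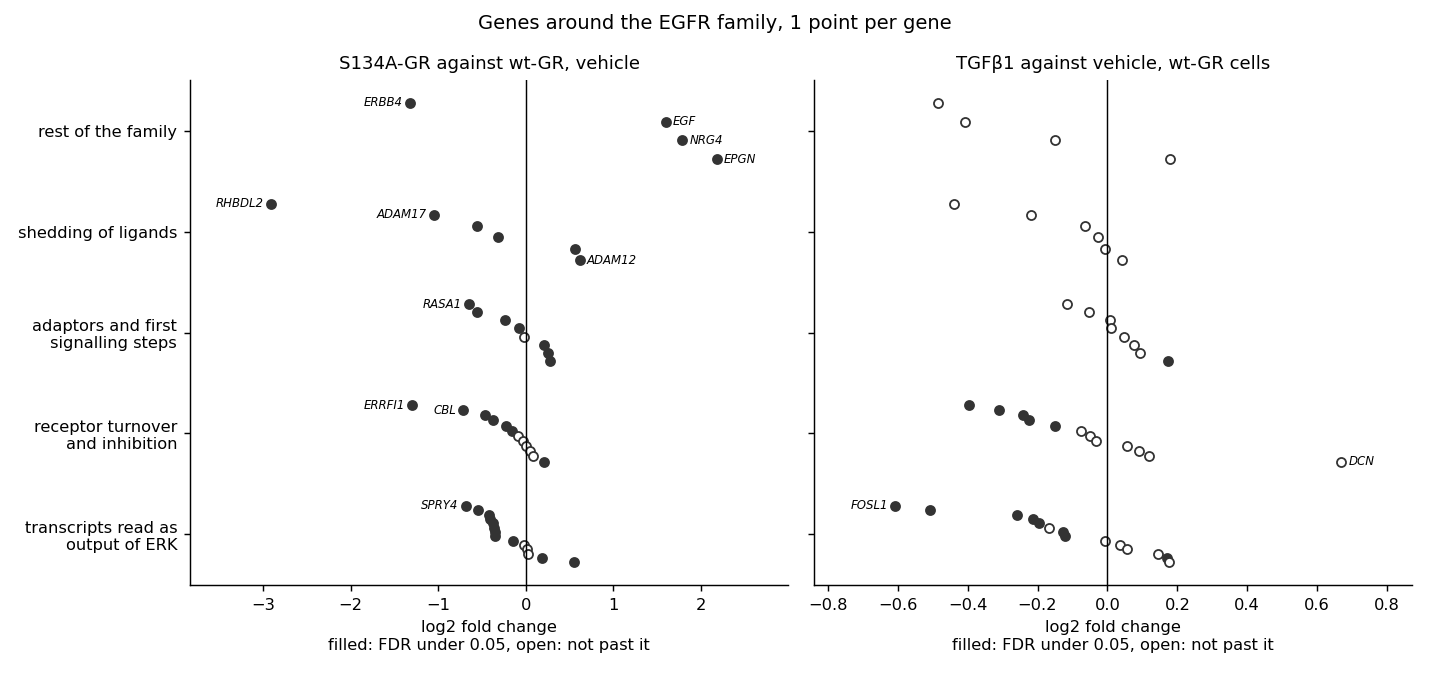
Log2FC of the 44 genes of the 5 lists, 1 point per gene, for S134A-GR against wt-GR cells under vehicle (left) and TGFβ1 against vehicle in wt-GR cells (right), with filled points at an FDR under 0.05 and names at an absolute value of at least 0.6. The left panel holds 35 filled points, of which 24 lie below 0, and the right panel holds 14, of which 12 lie below 0.

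ERBB3, NRG2 and TGFA varied most over the 12 libraries among the members that averaged at least 100 normalized counts, with SDs of log2 values of 0.776, 0.769 and 0.712. Of 12467 other genes at that level, those whose centred log2 values lay closest over the 12 libraries were found by the root mean square difference. For ERBB3 they were LONRF2 (0.207), CYP1A1 (0.234) and SLC16A6 (0.241). For NRG2 they were CIITA (0.150), ZBTB7C (0.184) and SPNS2 (0.198). The closest genes to TGFA were LRP5 (0.0916), SLCO4C1 (0.0946) and TM4SF18 (0.0952), at smaller differences than for ERBB3 and NRG2, which had lower counts. Spread between replicates enters these differences as well. The values are differences on the log2 scale and carry no test.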

How the data were processed

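RNA-seq libraries of 12 samples, 3 in each of 4 groups named by GEO's labels, were compared. The deposited signal is a normalized count per gene. To make it, the authors used Trimmomatic for trimming, HISAT2 for alignment (hg38), featureCounts for counting and DESeq2 (1.22.2) for size factors. Gene annotation and strand setting are not given in the sources used here. In every library 100% of values were whole multiples of a step (tolerance 0.001), which recovered the reads. Genes with at least 10 reads over the 12 libraries (18579) were tested by limma 3.58.1 in R 4.3.3 on log2(normalized count + 1), with 4 group means, a trended prior and Benjamini-Hochberg adjustment. Fold changes refer to this scale, where changes of low genes are understated. edgeR 4.0.16 and DESeq2 1.42.0 on the recovered reads were alternatives, beside other pseudocounts, filters, scalings, a replicate block, fits of only the groups compared, and each library left out. The code was tested on simulated data. The edgeR test on counts was not the main one because the values are normalized.

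The 10 genes, the 5 lists and the markers were chosen with earlier results of these data known. All 10 genes are named. From each list the 2 to 4 with the largest absolute difference in any comparison are given, with RHBDF1 added after its values were seen. Likeness of pattern was taken for the 3 genes of largest SD. The model holds no block, since the study's methods name none. Libraries with the same replicate number did not deviate together on average (mean r 0.000891 over 18 pairs, -0.155 to 0.154). A mean near 0 does not settle whether they were paired, and a fit with a block is given below.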

Additional observations from a re-analysis of the deposited data

How the results depend on the processing

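For the 10 genes in 5 comparisons, 22 alternatives (12 that left out a library and 10 others) gave 1090 values. Of these 1076 kept their side of the threshold, 7 gained and 7 lost a call. With a call in the main fit or the alternative, 0 changed direction. Changes of direction where neither fit gave a call were not counted. The changed calls concern EGFR, AREG, EREG, BTC and NRG2 and stand beside their results. The cause of these changes was not tested. With 1 library left out, the number of the 10 genes called ranged from 5 to 7 between lines under vehicle, was 6 under TGFβ1, ranged from 7 to 8 for TGFβ1 in each line, and was 0 for the difference in response. With the replicate number as a block, 8 genes in place of 7 were called for TGFβ1 in wt-GR cells, the added gene being BTC (adjusted p = 0.0467 by limma), and the block changed no other call of the 10 genes. Equal numbers are not stated to mark a shared batch. For the lists, 524 of 545 counts stayed within 1.5 times the main count. Over all genes, 77 were called for the difference in response by limma, 78 by edgeR and 211 by DESeq2. Without 1 library, this count ranged from 22 (TGFβ1 replicate 1 of wt-GR cells) to 166 (vehicle replicate 3 of wt-GR cells). Depth limits BTC, ERBB4, EPGN and NRG4, which had between 2 and 127 reads in a library, and no batch is given in the labels.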
